A study of Mus musculus with 3 samples.

Results

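Tumor neutrophils were taken from single-cell RNA-seq of sorted CD45+ leukocytes by a gate on raw unique molecular identifier (UMI) counts. Members were chosen by their UMI counts. Barcodes in which 200 or more genes were seen and mitochondrial UMIs did not pass 20% were kept, and a kept barcode was a member when it held at least 5 UMIs of S100a8 plus S100a9, at least 2 UMIs of Csf3r, Cxcr2 and Retnlg together, fewer than 5 UMIs of C1qa, C1qb and C1qc together, and fewer than 2 UMIs of Cd3d, Cd3e, Cd3g, Trac, Trbc1 and Trbc2 together. The gate held 394 of 71909 kept barcodes. Of these, 122 of 22235 came from the mono-IL-10 library, 216 of 22707 from the IL-10/2-Trikine library and 56 of 26967 from the combination library. Since the gate genes chose the members, their levels describe the gate and support nothing else.

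The tumors were KP1, a mouse small-cell lung cancer (SCLC) line, with 500000 cells grown under the skin of B6129SF1/J (F1) mice whose genotype is labelled wild-type. Mono-IL-10 (labelled Supermono-10) is a single-chain form of interleukin-10, and the IL-10/2-Trikine (labelled 10/2-Trikine) is an engineered cytokine that activates STAT3 and STAT5. Each was injected into the peritoneum on alternate days at 3 μg of active cytokine, beginning on day 7, and tumors were taken on day 19. The combination library (labelled 10/2-Trikine + PD1) came from mice that in addition were given anti-PD-1 antibody, 200 μg each on days 7, 11, 15 and 19. Every group was thus a treated group, and no untreated library was analysed here. All 3 groups are 1 library each and the number of mice behind a library is not given, so no test between treatments was possible and no p-value is printed. Leukocytes were first enriched on a Ficoll density gradient, on which most neutrophils sink away from the mononuclear cells, and then sorted as live CD45+ cells. The neutrophils described are those that passed both steps, and a difference in their share cannot be told apart from a difference in what the gradient kept.

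Neutrophils are short-lived phagocytes that mature in the bone marrow under granulocyte colony-stimulating factor, the ligand of the receptor encoded by Csf3r, and that leave the blood toward ligands of CXCR2. They make their granule proteins in a fixed order and stop transcribing the early ones as they mature, so a circulating or tissue neutrophil holds little RNA and few of those transcripts. In tumors they are known both as sources of chemokines and interleukin-1 and as cells that respond to interferon.

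Total UMIs were 158570946, 197176873 and 175794959 in the mono-IL-10, IL-10/2-Trikine and combination libraries. Between 137 and 180 kept barcode sequences were shared by any pair of libraries, and 0 of them were members in both. Empty droplets, taken as barcodes of 10 to 100 UMIs, held S100a8 plus S100a9 at 14.7, 67.0 and 4.27 CPM, the unit in which the UMIs of a gene are scaled to a common total. Intervals throughout are 95% intervals for counting error only. They are exact binomial for shares, logarithmic for ratios of shares and exact conditional binomial for ratios of CPM, and they contain no spread between mice or libraries. Those of CPM and its ratios count every UMI as an independent draw, so they contain no spread between barcodes either. Where few barcodes hold most UMIs of a gene, they are too narrow.

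Depth and genes outside the gate set a part of the members apart. Of the 394 members, 319 had at most 5000 UMIs and no UMIs of other lineages beyond the limit set, 71 had more than 5000 UMIs, and 4 were set aside for markers of natural killer (NK), B, dendritic or tumor cells alone. The 319 numbered 95, 183 and 41 in the mono-IL-10, IL-10/2-Trikine and combination libraries, with medians of 1890, 1294 and 1638 UMIs. In the 71 deeper members the medians were 8371.5, 8387.5 and 8456 UMIs, close to the 7900, 6606 and 7378.5 UMIs of monocytes gated in the same libraries on Lyz2 and on Ly6c2, Ccr2, Vcan and F13a1. Depth thus split the members into a large shallow group and a small deep one.

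The deep members carried monocyte transcripts. Ly6c2, Ccr2, Vcan and F13a1 together were at 3118, 1863 and 2052 CPM in the 71 deep members of the mono-IL-10, IL-10/2-Trikine and combination libraries, against 188, 189 and 293 CPM in the 319. Chil3, a chitinase-like protein of monocytes and immature granulocytes, was at 2875, 2083 and 4662 CPM in the deep members, at 94.1, 49.1 and 14.0 CPM in the 319 and at 1801, 2345 and 3031 CPM in the monocyte gate. A list of 8 monocyte markers, 4 of which define the monocyte gate, summed to 9792, 7831 and 10982 CPM in the deep members and to 9759, 9818 and 9897 CPM in that gate. The gate genes S100a8 plus S100a9, which describe the gate only, were at 2423, 5528 and 3443 CPM in the deep members against 19173, 35123 and 32867 CPM in the 319. The deep members thus carried these monocyte genes near the level of monocytes. They held 51.6%, 53.3% and 65.3% of all member UMIs, so values pooled over the 394 rest on both kinds of barcode.

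**Figure D1:**
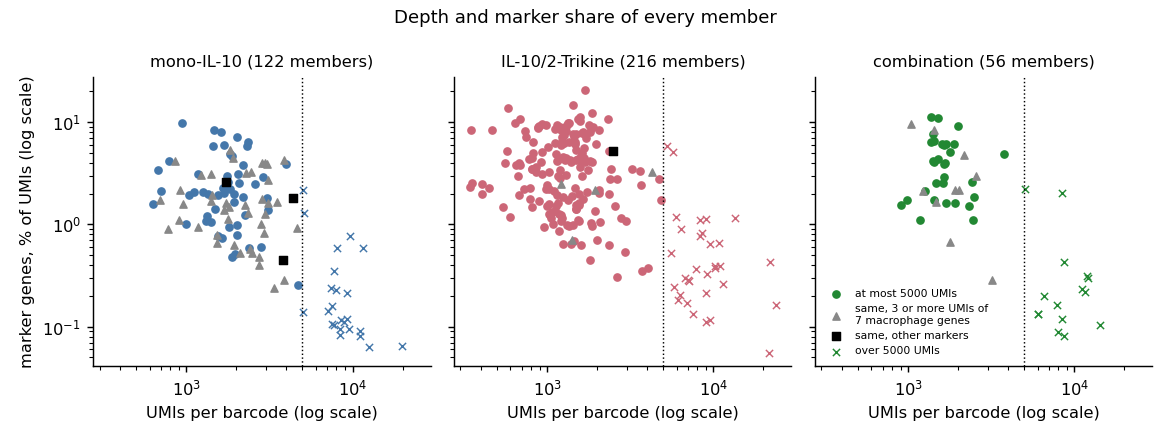
Each point is 1 member, by UMIs per barcode (horizontal, log scale) and by the percent of its UMIs from the gate's marker genes (vertical, log scale), in 1 panel per library. The dotted line marks 5000 UMIs. The 71 members to its right (crosses) mostly lie lower than the 319 to its left, whose gray triangles mark barcodes with 3 or more UMIs of 7 genes that are high in the macrophage gate.

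Transcripts of 7 genes that are high in the macrophage gate were spread unevenly over the 319. Negr1, Sox5, Ptprm, Cadm1, Tcf7l2, Grap2 and Myo1e were chosen, after the data were seen, as genes of the C1q macrophage gate that set the mono-IL-10 members apart, so their order over the libraries is no finding. Together they stood at 6745, 140 and 2794 CPM in the 319 members of the mono-IL-10, IL-10/2-Trikine and combination libraries. The macrophage gate held them at 4920, 3969 and 4510 CPM and the empty droplets at 3567, 750 and 2114 CPM. Of the 319, 43, 4 and 10 barcodes held 3 or more such UMIs, or 45.3%, 2.19% and 24.4%, while 44, 160 and 27 held 0. The B cell genes Ebf1, Pax5 and Bach2 were distributed likewise, at 2112, 52.9 and 587 CPM in the 319, although the B cell markers Cd79a, Cd79b and Ms4a1 were at 0 UMIs in the IL-10/2-Trikine and combination libraries. Both sets of genes were highest with mono-IL-10 and lowest with the IL-10/2-Trikine in the 319, and the 7 genes had that order in the empty droplets too. In the mono-IL-10 members the 7 genes stood above the macrophage gate itself, while macrophage markers, given below, stayed far under it. The source of these transcripts was not tested.

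Comparisons are therefore given for 3 nested sets. These are the 394 members, the 319 of at most 5000 UMIs without other markers, and 262 of those with fewer than 3 UMIs of the 7 genes (52, 179 and 31 in the mono-IL-10, IL-10/2-Trikine and combination libraries). The last set was defined after the data were seen. In the mono-IL-10 library the 40 barcodes with 10 or more UMIs of the 7 genes still held neutrophil transcripts, with G0s2 at 2211 CPM and Hdc at 1246 CPM against 4703 and 2008 CPM in the 52. The part of these transcripts in the differences below was not tested beyond this restriction.

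Markers of other leukocytes were low or absent in the 319, apart from the 7 genes of the macrophage gate and the 3 B cell genes above. For NK, B, dendritic and tumor cells the low levels follow in part from how the 319 were formed, since barcodes with 2 or more UMIs of 8 such markers were left out. Ebf1, Pax5 and Bach2, at 2112 CPM with mono-IL-10, were at 4095 CPM in B cells and 818 CPM in the empty droplets of that library. The 8 monocyte markers summed to 784, 1451 and 684 CPM in the 319. The eosinophil genes Epx, Prg2 and Il5ra were at 0 UMIs in all 3 libraries, as were 6 of 7 mast cell and basophil markers. A list of 10 macrophage markers (Adgre1, Mrc1, Csf1r and others) summed to 392, 355 and 307 CPM, against 2266, 2130 and 2264 CPM in the macrophage gate, with Trem2 and Pf4 at 0 in the mono-IL-10 and combination libraries. NK cell markers, 10 genes in all, summed to 241, 661 and 1159 CPM, below the 5530, 10799 and 17780 CPM of the empty droplets. Dendritic cell markers, which include the MHC class II genes H2-Aa, H2-Ab1 and Cd74, summed to 1992, 2694 and 684 CPM, against 17238 to 19402 CPM in the monocyte gates. Of 8 erythroid and platelet markers, 7 were at 0 with mono-IL-10 and all 8 in the other libraries.

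Neutrophils made up a small share of kept barcodes, which was highest with the IL-10/2-Trikine alone and lowest with the combination. The share was 0.549% (0.456 to 0.655) in the mono-IL-10 library, 0.951% (0.829 to 1.09) in the IL-10/2-Trikine library and 0.208% (0.157 to 0.270) in the combination library. That the combination library held few of these cells was known when the gate was chosen. Its low share is therefore described here, and its interval is no support for it. The IL-10/2-Trikine share was 1.73-fold that with mono-IL-10 (1.39 to 2.16), and the combination share was 0.218 of that with the IL-10/2-Trikine (0.163 to 0.293) and 0.378 of that with mono-IL-10 (0.276 to 0.519). Fewer than 500 genes were seen in 4 of 122, 53 of 216 and 0 of 56 members with mono-IL-10, the IL-10/2-Trikine and the combination. With at least 500 genes per barcode the shares were 0.593%, 0.762% and 0.229%, so the first ratio was smaller.

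The size of the ratios depended on the set. Among the 319 the shares were 0.427%, 0.806% and 0.152%, with ratios of 1.89 (1.47 to 2.42) and 0.189 (0.135 to 0.265). Among the 262 they were 0.234%, 0.788% and 0.115%, with ratios of 3.37 (2.48 to 4.59) and 0.146 (0.0996 to 0.213). The 262 leave out 43 of 95 mono-IL-10 barcodes and 4 of 183 IL-10/2-Trikine barcodes by genes picked for that contrast, so the larger first ratio follows from the filter and supports nothing. For the 71 deep members the shares were 0.108%, 0.141% and 0.0556%, and the first ratio, 1.31 (0.769 to 2.22), had an interval that included 1.

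A share of kept barcodes also moves with the other barcodes kept. Of these, 20680, 21208 and 24836 held a UMI of the leukocyte gene Ptprc with mono-IL-10, the IL-10/2-Trikine and the combination. Against monocytes, which were gated by Lyz2, a gene that neutrophils also transcribe, together with monocyte genes, there were 15.1, 27.0 and 9.93 members of the 394 per 100 monocytes with mono-IL-10, the IL-10/2-Trikine and the combination. Per 100 macrophages there were 3.48, 12.7 and 1.504. For the 319 alone the values were 11.7, 22.9 and 7.27 per 100 monocytes and 2.71, 10.8 and 1.10 per 100 macrophages. Monocytes themselves were 3.64%, 3.52% and 2.09% of kept barcodes and C1q macrophages 15.8%, 7.50% and 13.8%. The order of the 3 libraries was thus the same on every denominator used.

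**Figure D2:**
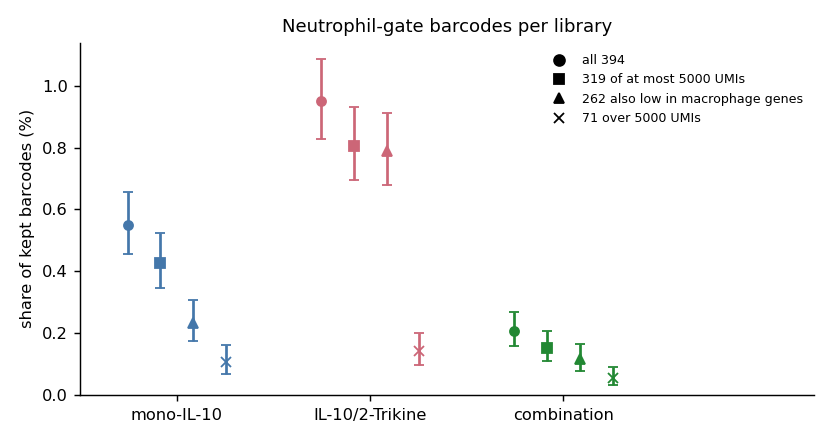
Share of kept barcodes (percent, vertical) that passed the neutrophil gate in each library, for all 394 members (circles), the 319 (squares), the 262 (triangles) and the 71 deep members (crosses), with exact 95% binomial intervals. The 394 stood at 0.549%, 0.951% and 0.208% with mono-IL-10, the IL-10/2-Trikine and the combination.

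Members close to the edges of the gate were common. With mono-IL-10, the IL-10/2-Trikine and the combination, 34, 30 and 9 members held only 5 to 9 UMIs of S100a8 plus S100a9, and 39, 55 and 7 held exactly 2 receptor UMIs. Just outside, 61, 69 and 36 barcodes had 2 or more receptor UMIs but only 1 to 4 UMIs of S100a8 plus S100a9, and 65, 107 and 19 had enough of the latter with 1 receptor UMI.

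In all 3 libraries the neutrophils shared a set of abundant transcripts that monocytes nearly lacked. As the gate genes themselves separate neutrophils from monocytes, these values describe the gate. Among 583 genes at 200 CPM or more in the 262 members of every library, 31 were at least 10-fold above the monocyte gate in all 3 libraries. G0s2, an inhibitor of the lipase ATGL, was at 4703, 6905 and 5753 CPM in the 262 with mono-IL-10, the IL-10/2-Trikine and the combination, against 20.6, 44.1 and 12.1 CPM in monocytes. Hdc, which makes histamine, was at 2008, 2200 and 2006 CPM against 21.4 to 26.9 CPM. Acod1, the source of itaconate, was at 6243, 4490 and 5450 CPM against 145 to 173 CPM. The gelatinase Mmp9 was at 281, 371 and 700 CPM and the protease Asprv1 at 489, 442 and 908 CPM, both below 1 CPM in monocytes. Further genes of this kind were Stfa2l1 and Cstdc4 (stefin-type protease inhibitors), Il36g (an IL-1 family cytokine), Csf1, Hcar2 (a receptor for hydroxybutyrate), Fpr1 (a formyl peptide receptor) and Cd9 (a tetraspanin).

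Several transcripts of early granules were absent or nearly so. The primary granule genes Mpo, Elane, Prtn3 and Ctsg, which promyelocytes transcribe, were at 0 UMIs in the 319 of all 3 libraries. Of the secondary granule genes, Camp was at 0 UMIs, Ngp at 0, 1 and 0 and Ltf (lactoferrin) at 4, 3 and 2 UMIs with mono-IL-10, the IL-10/2-Trikine and the combination. Lcn2, an iron-withholding protein of the same granules, was found, at 314, 680 and 196 CPM in the 319, as were Cybb, Ltb4r1, Anxa1 and Chil3 of the secondary granule list, whose 11 genes summed to 899, 1330 and 768 CPM. That sum is not granule RNA alone, since Ltb4r1 encodes a leukotriene receptor and is in the receptor list as well. Ly6g, the surface marker commonly used to sort mouse neutrophils, was nearly undetected by its transcript, at 1, 7 and 0 UMIs.

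Receptors of the cytokines given were sparse. Il10ra, the ligand-binding chain of the IL-10 receptor, was at 157, 215 and 210 CPM in the 319 with mono-IL-10, the IL-10/2-Trikine and the combination, and Il10rb at 131, 215 and 279 CPM. Il2ra was at 1, 2 and 0 UMIs and Il2rb at 4, 6 and 1 UMIs, while Il2rg, the common gamma chain, was at 94.1, 98.2 and 196 CPM. Stat3 was at 392, 408 and 489 CPM. Of the 11 genes of this list, 6 had the 20 UMIs needed for a ratio, and none of the 6 differed by 2-fold in either comparison of the 319. In the 262, Stat5b had a log2 ratio of 1.17 (-0.60 to 3.58) for the IL-10/2-Trikine relative to mono-IL-10, from 3 and 18 UMIs, an interval that includes 0, and Il2rg one of 1.16 (0.04 to 2.20) for the combination over the IL-10/2-Trikine, from 12 and 26 UMIs. A list of 15 genes known to respond to STAT3 or STAT5 had 11 with a ratio in the 319, with medians of 0.35 (-0.21 to 0.85) and -0.12 (-1.66 to 0.75) in these comparisons. Of the 11, 3 (Il4ra, Bcl2l1 and Nfil3) were at least 2-fold lower in the combination in the 319, against 10.2% of all genes, although the ratio of Il4ra, -2.51 (-7.88 to 0.13), has an interval that includes 0. Nfil3, a transcription factor of that list, was at 131, 310 and 97.8 CPM, with log2 ratios of 1.24 (0.58 to 1.95) and -1.66 (-3.02 to -0.56). Cebpb, which directs emergency granulopoiesis, was at 7079, 9294 and 8562 CPM, and 0 of 10 transcription factors of the granulocyte lineage with a ratio differed by 2-fold in either comparison of the 319, where 6.72% and 10.9% of all genes were at least 2-fold higher and 19.8% and 10.2% lower. In the 262, Cebpd, which is also in the STAT list, had a log2 ratio of 1.22 (0.47 to 1.93) in the combination and Runx1 of -1.40 (-2.30 to -0.62).

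Genes were compared between libraries as log2 ratios of pooled CPM where a pair held at least 20 UMIs, and a gene past 2-fold was counted. For the IL-10/2-Trikine relative to mono-IL-10, 5.76% of 5831 genes were at least 2-fold higher and 12.5% at least 2-fold lower in the 394. The same shares were 6.72% and 19.8% of 3095 genes in the 319 and 8.21% and 6.68% of 2350 genes in the 262. Of the 3095 genes, 1255 were at least as high in the neutrophils as in any of 6 other gates and in the empty droplets, read in the library where the neutrophils held more. Of these, 7.17% were at least 2-fold higher and 18.7% lower, close to the shares over all 3095. In the 394, 1141 of the 5831 genes were at least as high in the neutrophils as in these gates and droplets. Of the 336 higher genes, 199 had their greatest level in tumor cells. Of the 731 lower genes, 139 had it in tumor cells, 121 in macrophages and 115 in B cells. The share of all 5831 genes with their greatest level in tumor cells was not counted, so these counts are not read as a result. The 11 tumor markers summed to 48.1, 269 and 14.6 CPM with mono-IL-10, the IL-10/2-Trikine and the combination. The median log2 ratio over all genes was -0.09 in the 394, -0.12 in the 319 and -0.02 in the 262. Scaling moved this balance. The 394 had 336 genes at least 2-fold higher and 731 lower, against 442 and 590 with TMM factors and 332 and 1477 with means of per-barcode CPM, at all-gene medians of 0.04 and -0.29.

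With the IL-10/2-Trikine, Hmox1, Wfdc17 and Xbp1 stood above mono-IL-10 in the 319. Wfdc17 and Xbp1 belong to the list of tumor-associated neutrophil genes described below, and Hmox1 does not. Hmox1, the heme-degrading oxygenase, was at 47.1 CPM with mono-IL-10, 332 CPM with the IL-10/2-Trikine and 97.8 CPM with the combination in the 319. It was found in 8 of 95, 46 of 183 and 7 of 41 barcodes, and its log2 ratio of the IL-10/2-Trikine relative to mono-IL-10 was 2.82 (1.83 to 3.996), with 2.46 in the 262. Wfdc17, a whey acidic protein linked to suppressive myeloid cells, was at 298, 888 and 140 CPM, with a log2 ratio of 1.57 (1.15 to 2.02). Xbp1, a transcription factor of the unfolded protein response, was at 120, 287 and 83.8 CPM, with a log2 ratio of 1.26 (0.57 to 2.00). These 3 genes were highest in the IL-10/2-Trikine library in the 319. Over all 394 members, in which monocyte transcripts weigh more, the ratios were 1.58 for Hmox1, 0.23 for Wfdc17 and 0.54 for Xbp1.

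The list of 24 tumor-associated neutrophil genes leaned the same way, to an extent that depended on the set. Its median log2 ratio was 0.32 (0.04 to 0.53) over 19 genes in the 394, 0.47 (0.09 to 0.70) over 17 genes in the 319 and 0.17 (-0.45 to 0.62) over 17 genes in the 262. It was -0.0108 among members with at least 20 UMIs of S100a8 plus S100a9. In the 319, 14 of the 17 were above 0, of which 2, Wfdc17 and Xbp1, were at least 2-fold higher, against 6.72% of all genes, a gap of about 1 gene that is not read as a result. Cd274, which encodes PD-L1, was at 1877, 1881 and 1285 CPM in the 319 with mono-IL-10, the IL-10/2-Trikine and the combination and did not differ by 2-fold in either comparison. Arg1 and Nos2, whose products both consume arginine, were nearly absent from the 319, at 1, 1 and 0 UMIs and at 4, 0 and 0 UMIs.

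Among antimicrobial and granule genes, Lcn2 had a log2 ratio of 1.12 (0.69 to 1.56) for the IL-10/2-Trikine relative to mono-IL-10 in the 319. Lyz2, lysozyme, was at 371, 1050 and 740 CPM with mono-IL-10, the IL-10/2-Trikine and the combination, with a log2 ratio of 1.5004 (1.12 to 1.90). Lyz2 is also abundant in monocytes, and in the 394 its ratio was -0.59, the opposite direction. The tertiary (gelatinase) granule list had a median of 0.48 (0.04 to 1.07) over 10 genes in the 319, with Adam8 and Lyz2 at least 2-fold higher against 6.72% of all genes, of -0.08 in the 394 and of 0.00 in the 262, so no direction held across the sets.

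More interferon genes lay below 0 than above it for the IL-10/2-Trikine relative to mono-IL-10, as was so for all genes. In the 394, 36 of 48 with a ratio lay below 0, beside 3239 of all 5831 genes. In the 319, 26 of 41 did, beside 1689 of 3095. The count in the 319 was near the share over all genes and is not read as a result. A smaller share than of all genes was at least 2-fold lower in the 394 and the 319. Over a list of 52 interferon-stimulated genes the median log2 ratio was -0.34 (-0.46 to -0.07) over 48 genes in the 394, -0.40 (-0.61 to 0.10) over 41 in the 319 and -0.65 (-0.81 to -0.34) over 37 in the 262. In the 262, 30 of 37 were below 0 and none was at least 2-fold higher. There, 6 were at least 2-fold lower, namely Ifit1, Ifit2, Ifit3, Gbp5, Igtp and Slfn5, against 6.68% of all genes. The 262 were formed by genes picked for this contrast, which left out mostly mono-IL-10 barcodes. These counts and the median of the 262 are therefore not read as a result. Summed over the list, mono-IL-10 members held 13632 CPM in the 394, 14692 in the 319 and 19592 in the 262. IL-10/2-Trikine members held 13659, 14707 and 14870 CPM in these sets. Ifit1, an antiviral effector, was at 385, 70.3 and 18.9 CPM in the 262 with mono-IL-10, the IL-10/2-Trikine and the combination, although it was found in only 8 of 52, 10 of 179 and 1 of 31 barcodes, and 1 mono-IL-10 barcode held 20 of the 37 UMIs. Irf1 was at 1634, 1403 and 2895 CPM there. In the 394, 4 of 48 were at least 2-fold lower against 12.5% of all genes. In the 319, 4 of 41 (Ifit1, Ifit3, Ifit3b and Slfn5) were at least 2-fold lower against 19.8% of all genes, and Gbp4, at 1.42 (0.18 to 2.87), and Irf8, at 1.12 (-0.28 to 2.74), at least 2-fold higher.

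The class I antigen presentation list had a median of -0.04 (-0.27 to 0.21) over 15 genes in the 394, with 7 above and 8 below 0. It was -0.31 (-0.58 to 0.28) in the 319 and -0.58 (-0.99 to -0.08) in the 262. In the 262, Tap2, Tapbp and H2-Q6 were at least 2-fold lower, against 6.68% of all genes. Psmb10, an immunoproteasome subunit, was at least 2-fold higher there, against 8.21% of all genes. Summed over this list, mono-IL-10 members held 9866 CPM in the 394, 10185 in the 319 and 13193 in the 262. IL-10/2-Trikine members held 11073, 10487 and 10512 CPM. The lower values in the 262 are not read as a result, for the reason given above. The 4 Ifitm genes went the other way, all above 0 in both sets with medians of 0.68 and 0.27, though 2 of 4 were below 0 in the 394. Ifitm6 was at 57.5, 196 and 55.9 CPM in the 319 with mono-IL-10, the IL-10/2-Trikine and the combination.

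Under the rule for named genes, the 10 highest ratios in the 262 were Cd36, Myo1d, Hspa1a, Cxcl10, Ms4a6c, Chil1, Hmox1, Ifitm6, Lamb3 and Wfdc21. Chil1, a chitinase-like protein, was at 20.8, 137 and 341 CPM in the 262 with mono-IL-10, the IL-10/2-Trikine and the combination and was found in 2 of 52, 26 of 179 and 14 of 31 barcodes, while its ratio in the 394 was -0.13. Cxcl10 had a log2 ratio of 2.96 in the 262 and of -0.54 in the 319, with 3 and 65 UMIs in the mono-IL-10 barcodes of these sets. Cd36, Hspa1a and Ms4a6c came from few barcodes, with 3, 6 and 12 in the IL-10/2-Trikine library. The 10 lowest were Ebf1, Bach2, Saa3, Fchsd2, Mtss1, Aff3, Gpnmb, Abhd17b, Msi2 and Ifit1, of which Ebf1 and Bach2 are B cell transcription factors and were found in 5 and 9 of the 52 mono-IL-10 barcodes. In the 394 the 10 lowest were Ebf1, Sox5, Adgrb3, Pax5, Rad51b, Tmcc3, Bach2, Ptprm, B3galt1 and Myo10, which include 2 of the 7 genes and the 3 B cell genes above. The 10 highest in the 394 were Hspa1a, Mycl, Mt2, Ppie, Psip1, Ebna1bp2, Igfbp5, Mt1, Tnip3 and Myo1d. Single IL-10/2-Trikine barcodes held 67 of 156 UMIs of Mycl, 115 of 287 of Psip1, 65 of 186 of Ppie and 55 of 138 of Ebna1bp2. For Mt2 it was 25 of 61 and for Hspa1a 25 of 66. In the 319 the ratios of Mycl and Ebna1bp2 were -1.21 and -0.28, with intervals that include 0, while the others of these 10 stayed above 0. The metallothionein Mt1 was at 67.3, 213 and 102 CPM, from 13, 27 and 6 barcodes. In the 319, Hmox1, Fosl1, Myo1d, Chil1 and Wfdc21 were among the 10 highest.

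Adding anti-PD-1 was compared as the combination over the IL-10/2-Trikine. Here 6.9% of 4960 genes were at least 2-fold higher and 9.21% at least 2-fold lower in the 394. In the 319 the shares were 10.9% and 10.2% of 2342 genes, and in the 262 they were 8.68% and 11.9% of 2132 genes. By means of per-barcode CPM the 394 had 846 genes at least 2-fold higher and 448 lower, against 342 and 457 here, at all-gene medians of 0.24 and 0.08. Of the genes at least 2-fold lower in the 394, 271 of 457 had their highest CPM in tumor cells, and of those at least 2-fold higher, 16 of 342 did. The same share of all 4960 genes was not counted, so these counts are not read as a result.

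Neutrophil-attracting chemokines were lower in the combination. Cxcl1, Cxcl2 and Cxcl3 encode ligands of CXCR2, the receptor that neutrophils themselves carry. Cxcl2 was at 27486 CPM with mono-IL-10, 24171 CPM with the IL-10/2-Trikine and 8548 CPM with the combination in the 319. The log2 ratio of the combination over the IL-10/2-Trikine was -1.50 (-1.62 to -1.38), with -2.04 in the 394 and -1.34 in the 262. It was found in 81 of 95, 173 of 183 and 32 of 41 barcodes. Cxcl2 was thus lower in the combination on every set, and similar between the other libraries, with a log2 ratio of -0.19 for the IL-10/2-Trikine relative to mono-IL-10.

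Cxcl3 was at 2055, 2633 and 307 CPM in the 319 with mono-IL-10, the IL-10/2-Trikine and the combination. It was found in 33 of 95, 46 of 183 and 3 of 41 barcodes, and 17 of its 22 UMIs in the combination were in 1 barcode. The log2 ratio of the combination over the IL-10/2-Trikine was -3.10 (-3.78 to -2.49), with -2.68 in the 262. Cxcl1 was at 13, 22 and 0 UMIs, and a count of 0 does not show that it was absent from 41 shallow barcodes.

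The promoters of these chemokine genes are shown because they encode ligands of 1 receptor and because Cxcl2 and Cxcl3 were both lower. RefSeq gives them on build GRCm38.p6, all on the plus strand of chromosome 5, and the 150 bases before each start are printed 5′ to 3′. Capitals mark the letters of an NF-kappaB-type motif, searched on both strands as GGGA and TTCC with any 2 bases between them. It matches on both strands here, offset by 1 base.
Cxcl1 (chr5:90891095-90891244): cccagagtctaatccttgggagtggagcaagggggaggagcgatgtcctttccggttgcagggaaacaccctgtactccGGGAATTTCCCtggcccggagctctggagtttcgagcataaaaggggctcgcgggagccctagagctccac
Cxcl2 (chr5:90903749-90903898): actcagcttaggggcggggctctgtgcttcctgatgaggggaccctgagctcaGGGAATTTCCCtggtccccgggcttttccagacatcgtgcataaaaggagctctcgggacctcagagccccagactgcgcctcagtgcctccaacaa
Cxcl3 (chr5:90785951-90786100): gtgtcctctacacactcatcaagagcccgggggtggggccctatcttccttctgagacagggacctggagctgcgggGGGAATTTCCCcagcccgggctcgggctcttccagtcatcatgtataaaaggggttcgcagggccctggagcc
The same run GGGAATTTCCC lies 71 bases before the start of Cxcl1, 97 before Cxcl2 and 73 before Cxcl3. The motif was in 259 of 32851 promoters of this length (0.788%) and had no match in that of Ccl3. A match describes the letters of the window and says nothing of what binds there.

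Ccl3 and Ccl4, which attract monocytes and T cells, were lower in the combination too. Ccl3 was at 3148, 2490 and 1006 CPM in the 319 with mono-IL-10, the IL-10/2-Trikine and the combination, with a log2 ratio of -1.31 (-1.68 to -0.96) for the combination over the IL-10/2-Trikine. Ccl4 was at 4523, 5512 and 2472 CPM, with a log2 ratio of -1.16 (-1.39 to -0.93). In the 262 these ratios were -0.93 and -0.90, short of 2-fold. T cells also make both, and their free RNA reached 223 and 854 CPM in the empty droplets of the combination library.

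Among interleukin-1 genes, Il1a passed 2-fold and Il1b did not. Il1b was at 16747, 23215 and 16818 CPM in the 319 with mono-IL-10, the IL-10/2-Trikine and the combination, with a log2 ratio of -0.47 (-0.56 to -0.38) for the combination over the IL-10/2-Trikine, and was found in 89 of 95, 179 of 183 and 40 of 41 barcodes. Il1a was at 340, 503 and 238 CPM, with a log2 ratio of -1.08 (-1.90 to -0.35). Il1rn, the receptor antagonist, was at 1448, 1492 and 1117 CPM and did not differ by 2-fold. Cxcl10, an interferon-induced ligand of CXCR3, was the 1 gene of the list at least 2-fold higher, at 340, 234 and 601 CPM with a log2 ratio of 1.36 (0.76 to 1.94), from 11, 13 and 8 barcodes. Over the 22 chemokines and cytokines, 18 had a ratio in the 319, 7 were at least 2-fold lower (Cxcl2, Cxcl3, Ccl3, Ccl4, Il1a, Osm and Il23a) and 1 was at least 2-fold higher, against 10.2% of all genes lower and 10.9% higher in the 319. Of the 18, 7 were above 0. The median was -0.44 (-1.16 to 0.35), and in the 262 it was -0.32, with Cxcl2, Cxcl3 and Il1a at least 2-fold lower and Cxcl10 and Vegfa at least 2-fold higher, near the 11.9% and 8.68% of all genes there.

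**Figure D3:**
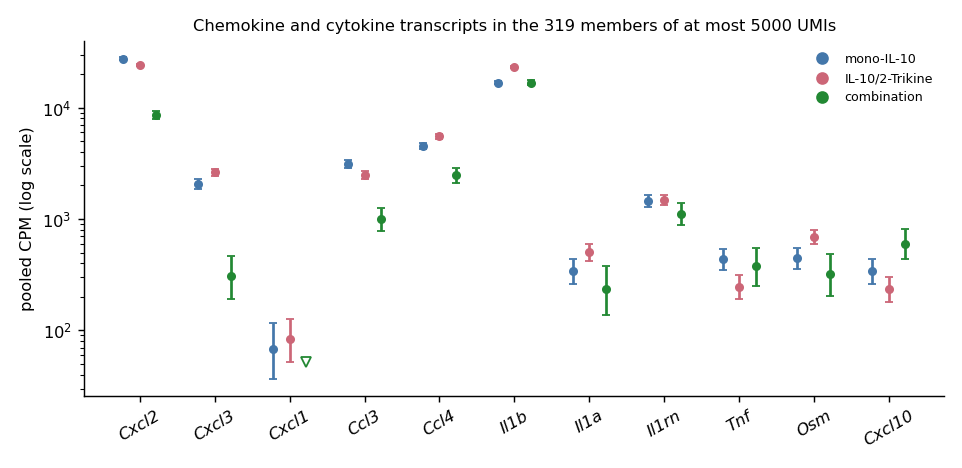
Pooled CPM (vertical, log scale) of 11 chemokine and cytokine genes in the 319 members, by library, with exact 95% Poisson intervals. The open triangle marks the upper limit of Cxcl1, at 0 UMIs in the combination. Cxcl2 is at 24171 CPM with the IL-10/2-Trikine and at 8548 CPM with the combination, while Cxcl10 is at 234 and 601 CPM.

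At equal depth the chemokine difference could be followed in the share of barcodes. After each barcode was thinned to 500 UMIs, which left out 0, 7 and 0 shallower barcodes, Cxcl2 was found in 81.1%, 92.0% and 61.0% of the 319 with mono-IL-10, the IL-10/2-Trikine and the combination, against 85.3%, 94.5% and 78.0% before thinning. The Cxcl2 intervals were 87.0 to 95.6 with the IL-10/2-Trikine and 44.5 to 75.8 with the combination. Such intervals count barcodes of 1 library each, so whether they overlap is no test between treatments. The background in T cells, at medians of 4399, 6330 and 4613 UMIs before thinning, was 0.737%, 0.821% and 0.157%. Cxcl3 was found in 27.4%, 21.0% (15.3 to 27.8) and 4.88% (0.596 to 16.5) against a background of at most 0.121%, and these intervals overlapped. For Ccl3 the shares were 42.1%, 36.9% and 12.2% (4.08 to 26.2), and the last interval included the 8.06% of T cells. T cells make Ccl3 themselves, at 485 CPM in the combination against 223 CPM in its empty droplets. Their share is therefore no background for Ccl3. Il1b stayed near saturation, at 92.6%, 96.0% and 97.6%.

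Monocytes of the same libraries showed Cxcl2 lower in the combination as well. In the monocyte gate Cxcl2 was at 1043, 786 and 287 CPM with mono-IL-10, the IL-10/2-Trikine and the combination, and Cxcl3 at 29.4, 52.6 and 6.15 CPM. The log2 ratio of the combination over the IL-10/2-Trikine for Cxcl2 was -1.45 (-1.54 to -1.36) in monocytes and -0.998 (-1.06 to -0.93) in C1q macrophages, beside -1.50 in the 319. The empty droplets held Cxcl2 at 100, 165 and 40.4 CPM. Cxcl2 was thus lower in the combination in all 3 gates, and its level was highest in the neutrophils in every library.

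Genes of the tumor-associated list were divided in the combination. Of 17 with a ratio in the 319, 3 (Wfdc17, Xbp1 and Spp1) were at least 2-fold lower and 1 (Jaml) higher, against 10.2% and 10.9% of all genes. Hmox1, Lcn2 and Lrg1 are given beside them but are not in that list, and Lcn2 and Lrg1 belong to the granule lists. Spp1, osteopontin, was at 497, 366 and 0 CPM in the 319 with mono-IL-10, the IL-10/2-Trikine and the combination, from 14, 16 and 0 barcodes. Wfdc17 had a log2 ratio of -2.67 (-3.75 to -1.76) for the combination over the IL-10/2-Trikine, Xbp1 of -1.78 (-3.27 to -0.59), Hmox1 of -1.77 (-3.12 to -0.66) and Lcn2 of -1.80 (-2.70 to -1.01). Lrg1, a secreted granule glycoprotein, was at 371, 540 and 196 CPM, with a log2 ratio of -1.47 (-2.37 to -0.67). In the 394 the ratios of Wfdc17, Xbp1, Hmox1 and Lcn2 were 0.11, -0.88, -0.02 and -0.50, so that the differences of Wfdc17 and Hmox1 were seen only without the deep members. Jaml, an adhesion molecule, was higher, at 183, 253 and 573 CPM with a log2 ratio of 1.18 (0.58 to 1.76). The 17 list genes with a ratio had medians of -0.20 (-0.72 to 0.19) in the 319, -0.28 (-0.88 to -0.04) over 18 genes in the 394 and 0.01 (-0.57 to 0.30) in the 262, so no direction held for the list.

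Interferon genes were mostly higher in the combination over all 394 members, and were divided in the 319. The list median of the combination over the IL-10/2-Trikine was 0.72 (0.55 to 0.92) over 46 genes in the 394, with 42 above 0 and 12 at least 2-fold higher, against 6.9% of all genes. In the 319 it was 0.17 (-0.18 to 0.64) over 39 genes, with 22 above and 17 below 0, of which 4 were at least 2-fold higher (Oasl2, Gbp5, Slfn8 and Tap1) and 4 lower (Ifit1, Ifit2, Irf8 and Slfn4), near the 10.9% and 10.2% of all genes. In the 262 it was 0.32 (0.13 to 0.59) over 35 genes, with 28 above 0, 8 at least 2-fold higher and 1 lower, against 8.68% and 11.9% of all genes. Medians over all genes were 0.08, 0.08 and 0.02.

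Irf1, a transcription factor induced by interferon-gamma, was at 1135, 1386 and 2696 CPM in the 319 with mono-IL-10, the IL-10/2-Trikine and the combination. Its log2 ratio of the combination over the IL-10/2-Trikine was 0.96 (0.70 to 1.21) and reached 1.05 in the 262. Gbp5, a guanylate-binding protein of inflammasome assembly, was at 418, 215 and 545 CPM, with a log2 ratio of 1.34 (0.71 to 1.95). For Gbp5 the IL-10/2-Trikine library was the lowest of the 3. Isg15 was at 1454, 2085 and 1620 CPM. Its log2 ratio of -0.36 (-0.67 to -0.07) went the other way.

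In the deep members some interferon genes were further apart than in the 319 and others were not. Cxcl9, a ligand of CXCR3, was at 778, 157 and 1770 CPM in the 71 with mono-IL-10, the IL-10/2-Trikine and the combination, against 41.8, 0 and 14.0 CPM in the 319. Cxcl10 was at 783, 1345 and 4535 CPM in the 71. Gbp5 was at 214, 318 and 602 CPM and Irf1 at 410, 755 and 1294 CPM, no further apart between the IL-10/2-Trikine and the combination than in the 319. The deep members were 14.8% of the IL-10/2-Trikine members and 26.8% of the combination members, so the 2 libraries entered the pooled ratio with unequal parts of such barcodes.

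**Figure D4:**
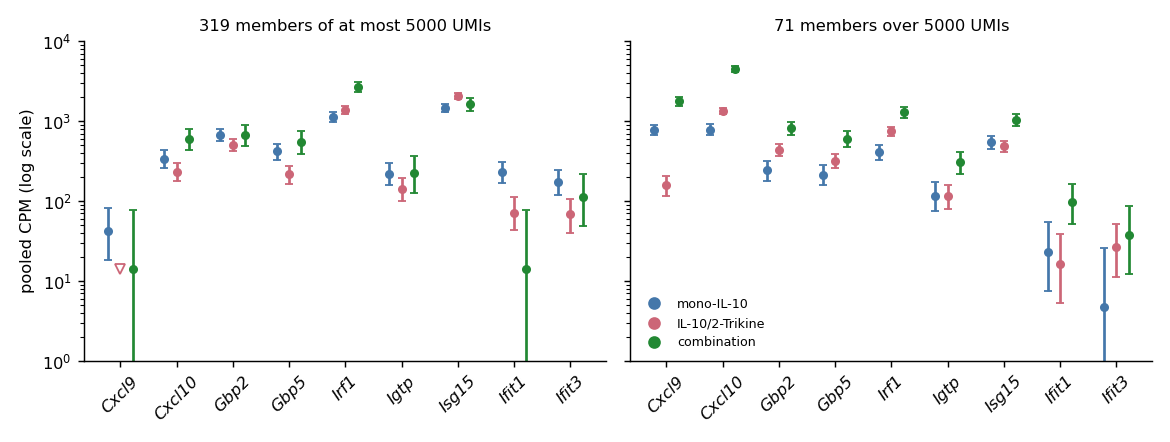
Pooled CPM (vertical, log scale) of 9 interferon-stimulated genes by library, in the 319 members of at most 5000 UMIs (left) and the 71 deeper members (right), with exact 95% Poisson intervals. The open triangle marks an upper limit at 0 UMIs. Cxcl10 reaches 601 CPM on the left and 4535 CPM on the right in the combination.

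Class I antigen presentation genes had a median above 0 in the combination in all 3 sets. The median log2 ratio over 15 genes was 0.40 (0.01 to 0.72) in the 394, 0.61 (0.38 to 1.14) in the 319 and 0.71 (0.41 to 1.19) in the 262. In the 394, 1 of 15 (Tapbp) was at least 2-fold higher, near the 6.9% of all genes. In the 319, 4 of 15 (H2-Q6, Tap1, Tap2 and Tapbp) were, against 10.9% of all genes. In the 262, 13 of 15 were above 0 and 5 at least 2-fold higher, namely H2-Q6, H2-T22, Tap1, Tap2 and Tapbp, against 8.68% of all genes. Tap1, a subunit of the peptide transporter, was at 152, 117 and 265 CPM in the 319 with mono-IL-10, the IL-10/2-Trikine and the combination. H2-D1, a classical class I chain, was at 2510, 3053 and 4162 CPM, with a log2 ratio of 0.45 (0.25 to 0.64). B2m, the light chain shared by all class I molecules, was at 2965, 3717 and 3646 CPM, with a log2 ratio of -0.03 (-0.23 to 0.17).

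NF-kappaB genes were also mostly above 0 in the combination. The list median was 0.35 (-0.02 to 0.57) over 20 genes in the 394, an interval that includes 0, 0.50 (0.02 to 0.76) over 17 genes in the 319 and 0.52 (0.11 to 0.90) in the 262. Nfkb1, a subunit of the factor, was at 894, 480 and 1159 CPM in the 319 with mono-IL-10, the IL-10/2-Trikine and the combination, with a log2 ratio of 1.27 (0.86 to 1.68). Relb, a subunit of the noncanonical arm, was at 99.3, 83.1 and 279 CPM, from 17, 21 and 12 barcodes, and Traf1 was at least 2-fold higher as well, so that 3 of 17 were, against 10.9% of all genes. The inhibitor Nfkbia was at 7377, 6804 and 7766 CPM and Nfkbiz at 1501, 1432 and 1453 CPM, and neither differed by 2-fold.

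Genes of hypoxia and glycolysis were mostly below 0 in the combination. The median over 24 genes was -0.57 (-0.92 to -0.07) in the 319, with 19 below 0 and 4 at least 2-fold lower (Pfkp, Pfkfb3, Tpi1 and Egln3) against 10.2% of all genes, and was -0.49 in the 394 and -0.50 in the 262. Egln3, an oxygen sensor that is itself induced by hypoxia, was at 136, 242 and 69.8 CPM in the 319 with mono-IL-10, the IL-10/2-Trikine and the combination, from 16, 35 and 3 barcodes. Slc2a1, the glucose transporter GLUT1, was at 309, 442 and 224 CPM, with a log2 ratio of -0.98 (-1.84 to -0.22). Ldha was level, at 439, 434 and 433 CPM.

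Immediate-early and heat shock genes, which respond to handling of tissue as well as to stimuli in the animal, were mostly below 0 too, with exceptions. Fos was at 1485, 2202 and 1090 CPM in the 319 with mono-IL-10, the IL-10/2-Trikine and the combination, with a log2 ratio of -1.02 (-1.38 to -0.67). Jun was at 444, 854 and 224 CPM, with a log2 ratio of -1.93 (-2.77 to -1.20). Hsp90aa1 was at 225, 706 and 154 CPM, with 1 IL-10/2-Trikine barcode holding 30 of 187 UMIs. The list median was -0.46 (-0.76 to -0.04) over 22 genes in the 319 and -0.25 (-0.76 to 0.22) in the 262. Dusp2, a phosphatase induced by activation, was higher, at 303, 234 and 545 CPM in the 319 with a log2 ratio of 1.22 (0.60 to 1.82), and in the 262 both Dusp2 and Nr4a1 were at least 2-fold higher. The part of handling in the chemokine and hypoxia differences was not tested.

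Genes of survival and of the oxidative burst were mostly above 0 in this comparison. The survival and death list had a median of 0.42 (0.04 to 0.69) over 12 genes in the 319 and of 0.61 (0.29 to 0.98) in the 262, where 11 of 12 were above 0 and Bcl2a1d and Fas were at least 2-fold higher, against 8.68% of all genes, or about 1 gene in a list of this size. Mcl1, on which neutrophil survival depends, was level at 3174, 3166 and 3450 CPM in the 319. The NADPH oxidase list had a median of 0.55 (-1.41 to 0.68) over 7 genes. Cyba was at 403, 484 and 712 CPM and Ncf1 at 293, 253 and 405 CPM with mono-IL-10, the IL-10/2-Trikine and the combination, whereas Cybb, the catalytic subunit, was at 214, 185 and 69.8 CPM. In the 394 all 7 oxidase genes were above 0, Cybb included at 0.84.

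Among surface receptors, 3 of 19 with a ratio were at least 2-fold higher in the combination in both the 319 and the 262, against 10.9% and 8.68% of all genes in these sets, a difference of about 1 gene that is not read as a result, and Cd101 alone of them in the 394. Ltb4r1, a leukotriene receptor, had a log2 ratio of -1.04 (-2.74 to 0.31) in the 319. Selplg, the ligand of P-selectin used in rolling on endothelium, was at 230, 151 and 489 CPM in the 319 with mono-IL-10, the IL-10/2-Trikine and the combination, with a log2 ratio of 1.69 (0.997 to 2.39). Tlr2, a receptor for bacterial lipopeptides, was at 146, 185 and 405 CPM, with a log2 ratio of 1.13 (0.41 to 1.82). Cd101, carried by mature neutrophils, was at 52.3, 41.6 and 140 CPM from 7, 11 and 9 barcodes. The median of the receptor list was -0.08 in the 319 and 0.16 in the 262. Asprv1, a gene of the neutrophil profile, was at 392, 427 and 852 CPM in the 319, with a log2 ratio of 0.997 (0.52 to 1.46), and after thinning to 500 UMIs it was found in 12.6%, 12.5% and 31.7% (18.1 to 48.1) of barcodes. Thinned to 1000 UMIs, the shares were 26.5%, 24.8% (17.8 to 32.9) and 35.9% (21.2 to 52.8), closer together than at 500 UMIs. No difference in share is read for Asprv1.

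**Figure D5:**
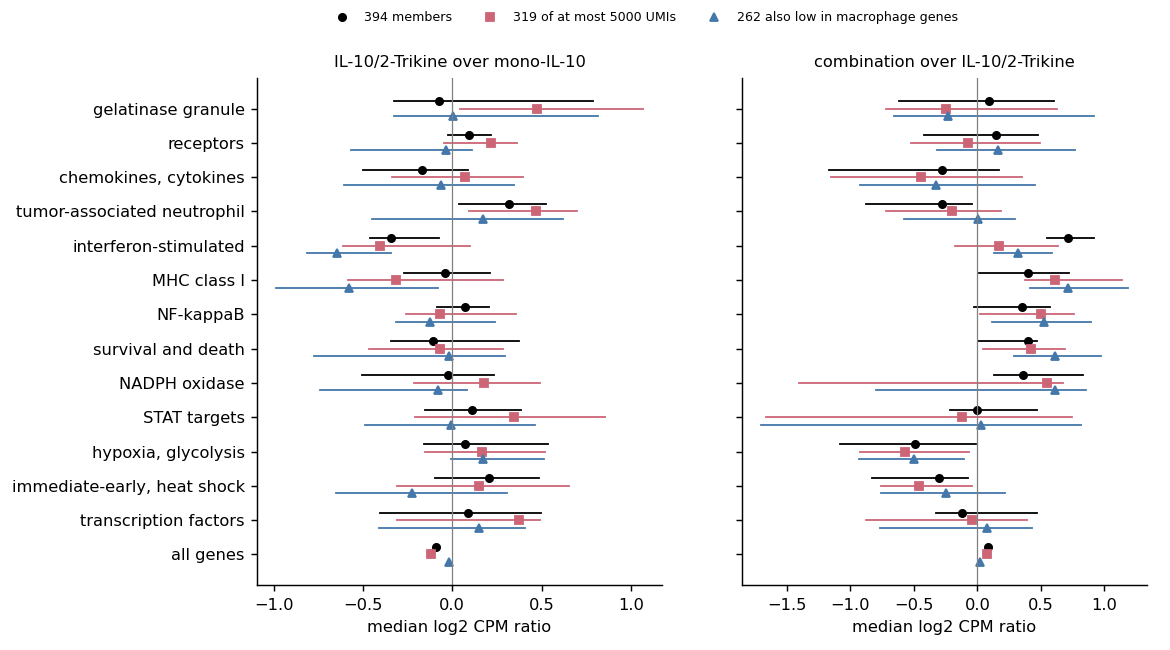
Median log2 ratio of pooled CPM (horizontal) of each gene list for the IL-10/2-Trikine relative to mono-IL-10 (left) and the combination over the IL-10/2-Trikine (right), in the 394 (circles), 319 (squares) and 262 (triangles), with order-statistic 95% intervals. The interferon list is at -0.34, -0.40 and -0.65 on the left and at 0.72, 0.17 and 0.32 on the right. Both comparisons use the IL-10/2-Trikine library, on opposite sides of the ratio, so their signs are not read against each other.

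By the rule for named genes, the 10 lowest ratios of the combination over the IL-10/2-Trikine in the 319 were Ciart, Cd36, Spp1, Ms4a6c, Hspa1a, Cxcl3, Zfp36l1, Dmxl2, Wfdc17 and Fam162a. Zfp36l1, which promotes decay of AU-rich mRNAs, was at 356, 578 and 69.8 CPM with mono-IL-10, the IL-10/2-Trikine and the combination, from 36, 68 and 3 barcodes, with a log2 ratio of -3.05 (-4.69 to -1.80). The 10 highest in the 319 were Myo1e, Itga9, Cadm1, Ikzf2, Grap2, Pou2f2, Maml2, Sipa1l1, Tcf7l2 and Arf2, of which Myo1e, Cadm1, Grap2 and Tcf7l2 belong to the 7 genes of the macrophage gate above. In the 262 the 10 highest were Ikzf2, Arf2, Zeb1, Ly6c2, Klf10, Cstdc5, Zswim6, Nub1, Creb1 and Plcl2. Klf10, induced by transforming growth factor beta, was at 72.8, 66.4 and 378 CPM in the 262 and was found in 7 of 52, 14 of 179 and 15 of 31 barcodes. Single barcodes held 19 of 22 UMIs of Ikzf2 in the combination, 15 of 20 of Ly6c2, 9 of 14 of Plcl2, 13 of 21 of Zeb1, 21 of 38 of Zswim6, 10 of 19 of Cstdc5 and 6 of 12 of Nub1.

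In the 394 the 10 highest ratios of the combination were Ly6d, Cxcl11, Cxcl9, Cfb, Plxnc1, Calhm6, Daxx, Sdad1, Lpgat1 and Bst2. Cxcl11, a ligand of CXCR3 like Cxcl9 and Cxcl10, was at 149, 21.0 and 359 CPM with mono-IL-10, the IL-10/2-Trikine and the combination, from 2, 3 and 9 barcodes. Cfb, complement factor B, was at 89.0, 26.2 and 233 CPM, from 18, 10 and 10 barcodes. All 45 UMIs of Ly6d lay in 1 barcode. The 10 lowest were Igfbp5, Cacna2d1, Kcnip4, Spp1, Mt2, Cadm2, Nfib, Galntl6, Mycl and Cadps2. Of these, Spp1 was found in 20 of 216 IL-10/2-Trikine barcodes and each of the others in at most 7. The low end of this ranking thus mostly came from few barcodes, while 7 of the 10 highest were found in 10 to 18 of the 56 combination barcodes. Among those 7, single barcodes still held 26 of 44 UMIs of Bst2, 15 of 31 of Lpgat1 and 20 of 48 of Cfb. Of the 56 combination barcodes, 15 were deep members. In the 319, which leave these out, Plxnc1 had a log2 ratio of 2.89 (1.58 to 4.32). Lpgat1, at 1.30 (-0.47 to 2.95), and Cfb were above 0 there, with intervals that include 0. Daxx, at -0.44, Bst2, at -0.11, Calhm6 and Sdad1 were below 0 there, also with intervals that include 0.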

How the data were processed

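Live CD45+ leukocytes of KP1 tumors were profiled with 10x Genomics 3' version 3.1 kits, 1 library per treatment. The authors deposited raw UMI counts per gene and barcode. Cell Ranger 8.0.0 is named per the file headers and mm10 in the submitters' processing notes. Titles and treatment labels were followed for anti-PD-1, which the protocol text could also be read as giving to every group. The sample labels call the cells T cells although other leukocytes were present.

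Kept barcodes had at least 200 genes and at most 20% mitochondrial UMIs, and no cell calling was applied beyond these limits. The members and gene lists were chosen with earlier results of these data known. Counts were pooled per library and set, scaled to CPM and compared as log2 ratios for genes with at least 20 UMIs in a pair. Past 2-fold counted as a difference in size, and with 1 library per treatment no test was run. Medians of 6 or more genes carry order-statistic intervals. Monocytes had at least 5 Lyz2 UMIs and 3 of Ly6c2, Ccr2, Vcan and F13a1, and macrophages at least 10 C1q UMIs. No doublet caller was run, and barcodes over 5000 UMIs or with 2 or more UMIs of NK, B, dendritic or tumor markers were left out as an alternative instead, giving the 319. Genes named by rule were the 10 highest and 10 lowest ratios whose greater level reached 100 CPM and was not below that of the empty droplets, without gate, mitochondrial, ribosomal, antigen receptor, hemoglobin and sex-linked genes. From each list the genes past 2-fold or highest by CPM were to be named, of which the text gives those of the 319 in most lists and only some of the others, along with genes chosen after their values were seen. The 20 genes with the largest ratio over monocytes described the gate. Shares of barcodes were thinned to 500 UMIs. Total UMIs per library, which set the precision, stand in the report. The statistics were tested on simulated data with independently drawn counts, which could not show spread between barcodes. Analyses used Python 3.11.15, numpy 2.4.6, scipy 1.17.1, pandas 2.3.3, matplotlib 3.10.9 and, for TMM factors, edgeR 4.0.16 in R 4.3.3. Promoters came from RefSeq on GRCm38.p6. Some items are not reported here.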

Additional observations from a re-analysis of the deposited data

How the results depend on the processing

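No paired analysis was possible because each treatment is 1 library and no test was run, so no replicate could be left out either. The direction of both share ratios was the same in the 394 and the 319. The IL-10/2-Trikine share was 1.29-fold that with mono-IL-10 with at least 500 genes per barcode, 2.29-fold with at least 20 UMIs of S100a8 plus S100a9, and 3.37-fold in the 262, a set chosen after seeing the data. The combination share was 0.301 of the IL-10/2-Trikine share with at least 500 genes and 0.146 in the 262. For the IL-10/2-Trikine relative to mono-IL-10, the genes at least 2-fold higher numbered 580 with at least 20 UMIs of S100a8 plus S100a9, 211 with stricter C1q and T cell limits, 208 in the 319, 193 in the 262 and 112 with at least 50 UMIs in the pair. The genes at least 2-fold lower numbered 157 in the 262, 314 with at least 50 UMIs and 1477 with means of per-barcode CPM. For the combination over the IL-10/2-Trikine, those higher numbered 185 in the 262, 120 with at least 50 UMIs and 846 with per-barcode means. Those lower numbered 291 with at least 3 receptor UMIs, 266 with stricter C1q and T cell limits, 240 in the 319, 254 in the 262 and 135 with at least 50 UMIs. The lower counts at 50 UMIs, in the 319 and in the 262 come with fewer genes compared. The cause of the other moves was not tested. The tumor-associated list changed sign to -0.0108 for the IL-10/2-Trikine relative to mono-IL-10 with at least 20 UMIs of S100a8 plus S100a9 and to 0.00728 for the combination in the 262. Over the alternatives of 28 list medians, 55 of 308 values changed sign, these 2 and 53 whose interval in the 394 includes 0. Lists without an interval in the 394 were not among them. The secondary granule list, for instance, was at -0.43 in the 394 and 0.51 in the 319 for the IL-10/2-Trikine relative to mono-IL-10. Of 371 values of the 40 ratios named in the 394, 52 left their counting interval and 0 changed sign, but only 16 of the 40 had the UMIs to be compared in the 319 and 8 in the 262. At any UMI count, 10 of 37 had the opposite sign in the 319, each with an interval that includes 0. Of 30 thinned shares, 13 left theirs at 1000 UMIs, a depth that keeps more UMIs of each barcode and leaves out more barcodes. With 41 shallow members in the combination, genes under about 100 CPM rest on a few UMIs, and 1 barcode can set them.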
